A study of Mus musculus with 16 samples.

Results

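The cytochrome P450 families 1 to 3 of the mouse were followed in liver by array. The genes were the 52 whose probe set carried a single platform symbol of the form Cyp1, Cyp2 or Cyp3, a subfamily letter and a number, out of 19938 genes with a single symbol, and each was read from its probe set with the highest mean. They fell into 16 subfamilies, 51 were annotated as protein coding and 1, Cyp2d13, as a transcribed pseudogene. Total RNA from livers of adult mice was hybridised to Affymetrix MoGene 1.0 ST arrays, which carry probes along the whole transcript, with 1 array for each of 16 animals. The 4 groups of 4 animals crossed 2 genotypes with 2 diets given for 12 weeks: Gli2 heterozygous null mice on high-fat diet (Het_HFD), Gli2 heterozygous null mice on control diet (Het_control), wild-type mice on high-fat diet (WT_HFD) and wild-type mice on control diet (WT_control). Gli2 is a transcription factor of the hedgehog pathway, and the comparisons ask how the high-fat diet and the loss of 1 Gli2 copy move the drug-metabolizing enzymes. Wild-type animals carry the label Gli1_WT although the series concerns Gli2, and they are taken as wild type here. The sources used here do not state the deleted part of Gli2, the strain, the sex, the exact age or what the diets contained.

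Cytochromes P450 are haem enzymes of the endoplasmic reticulum that receive electrons from P450 oxidoreductase and insert an oxygen atom into their substrates. Families 1 to 3 carry out most oxidation of drugs and foreign chemicals in the liver, and many members also act on steroids, bile acids, retinoids and polyunsaturated fatty acids. Their transcription in hepatocytes is known to answer to the aryl hydrocarbon receptor (AhR, family 1), the constitutive androstane receptor (CAR, subfamily 2b) and the pregnane X receptor (PXR, subfamily 3a), and in rodents many of them differ between the sexes under the pattern of growth hormone secretion.

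Levels below are the deposited log2 values, so a difference of 1 is a change of 1 doubling, and differences carry the standard error (SE) of the fit. A gene is called where the Benjamini-Hochberg adjusted p over all 19938 genes was under 0.05 in limma. The array Het_control 2 stood apart: its correlation with the other 15 arrays lay between 0.961 and 0.979, against 0.990 to 0.997 among those 15, and its interquartile range was 1.95, against 2.40 to 2.60. It was the lowest of the 16 arrays in 26 of the 52 P450 genes and the highest in 10, against 5431 and 9164 of all 19938 genes. It was lowest in 22 of the 29 P450 genes with a mean of 10 or more and highest in 9 of the other 23, and results are also given without it. The 11 hepatocyte markers measured were high on every array, with a mean log2 level between 13.43 and 13.58 on the Het_control arrays and within that range in the other 3 groups. Xist lay between 12.60 and 12.94 on all 16 arrays. The Y-linked genes lay between 6.10 and 6.62 (Kdm5d), 5.14 and 5.65 (Uty) and 4.43 and 4.60 (Eif2s3y). High Xist with low Y-linked genes on every array is the pattern of female tissue, although the sources do not state the sex. Gli2 itself lay between 7.46 and 7.61 in Het_HFD, 7.50 and 8.14 in Het_control, 7.40 and 7.57 in WT_HFD and 7.54 and 7.58 in WT_control livers, and its difference between Het and WT over both diets was 0.08 ± 0.07 with a limma adjusted p of 0.632. All these values lay below the array medians, which ran from 8.26 to 8.40. The deleted part is not given, so whether the probes lie inside it is not known, and why Gli2 was not lower in Het was not tested.

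Of the 52 genes, 37 had a mean level above the median of all probe sets and 29 a mean of 10 or more. The median standard deviation (SD) within groups was 0.15 for the P450 genes and 0.13 for all genes. An SD above 0.5 was seen in 2 genes, Cyp2c39 and Cyp3a16. The map of levels by array shows Cyp3a16 low on all 4 Het_control arrays, Cyp2c39 in a pattern that follows neither diet nor genotype, and Het_control 2 low in most genes of subfamilies 2a, 2c and 3a.

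**Figure D1:**
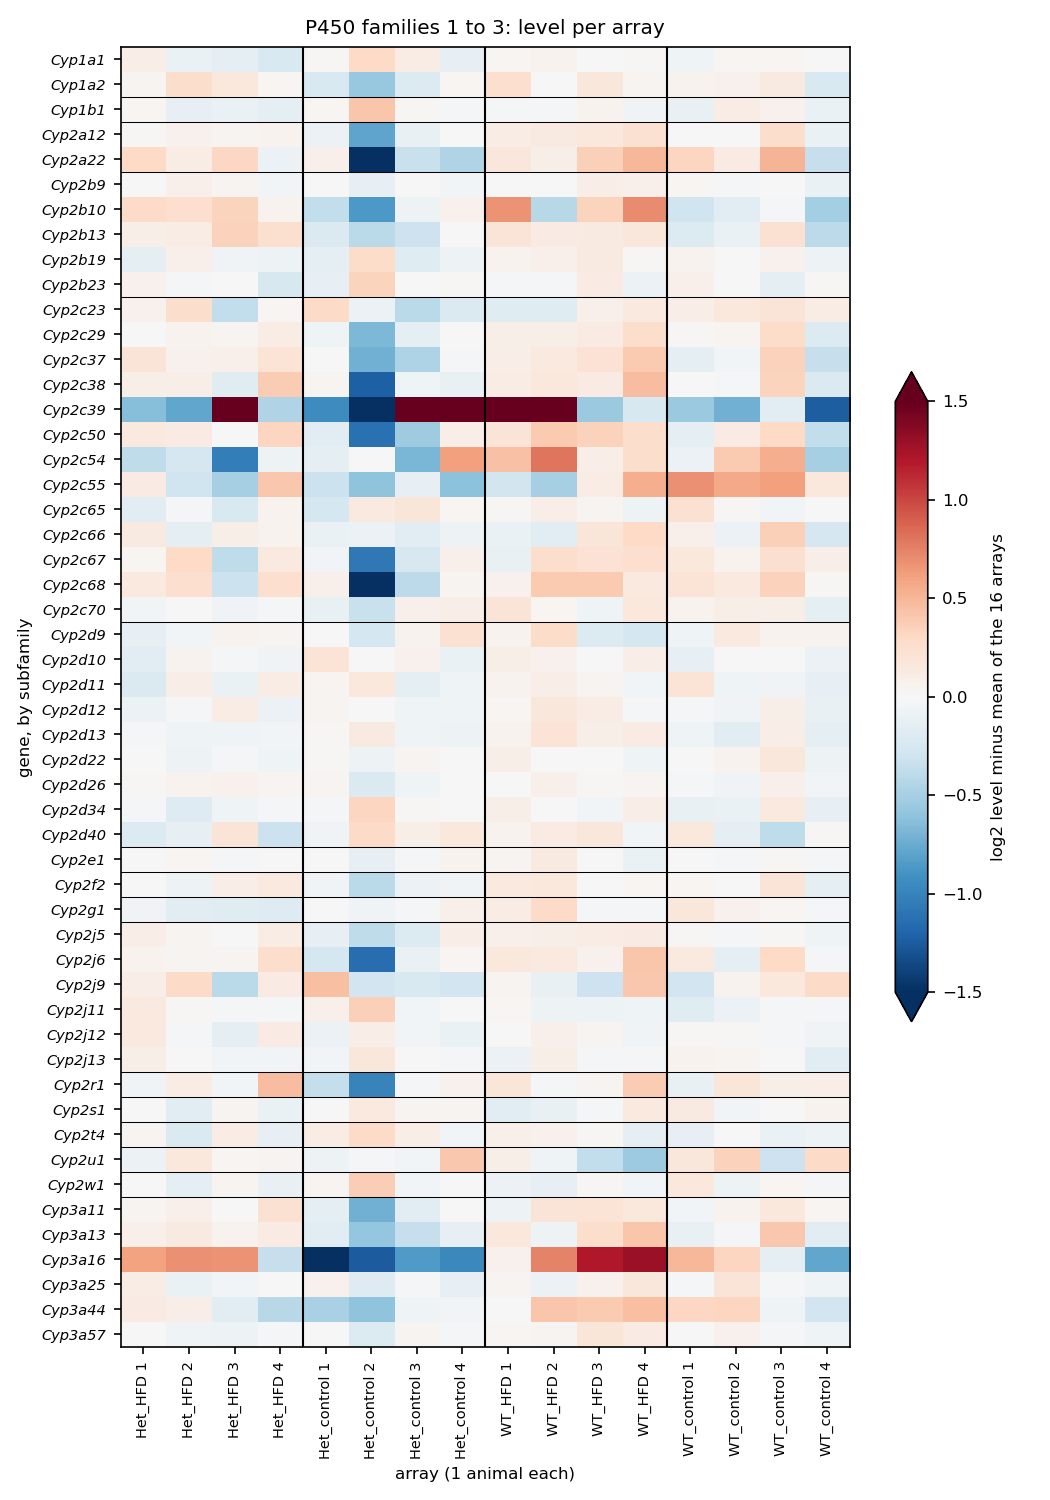
Heat map of the 52 P450 genes (rows, by subfamily) on the 16 arrays (columns, by group). Colour is the log2 level minus the gene's mean over the 16 arrays, with values beyond 1.5 in either direction shown at the end colours. Het_control 2 was the lowest array in 26 genes and the highest in 10.

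The first question was what the high-fat diet did in each genotype. In Gli2 heterozygous livers 1 of 52 P450 genes, Cyp3a16, rose and 0 fell, against 2.22% of all genes called in either direction (1.50% higher and 0.712% lower). At an unadjusted p under 0.05, 15 were higher (13.9% of all genes) and 1 was lower (17.7% of all genes). All 4 Het_HFD values lay above all 4 Het_control values for 7 genes (6.58% of all genes), which were Cyp2a12, Cyp2b13, Cyp2c37, Cyp2j6, Cyp3a11, Cyp3a13 and Cyp3a16. The reverse held for Cyp2d34 alone (7.15% of all genes). The median difference over the 52 was 0.06, against -0.05 over all genes, and 31 of the 52 were positive. Among the 29 genes with a mean of 10 or more the median was 0.22 and 13 had an unadjusted p under 0.05 upwards, against a median of 0.13 and 1231 of 3822 for all genes that bright. Without Het_control 2 the bright P450 median was 0.11 with 9 genes upwards, against 0.05 and 752 of 3822.

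In wild-type livers limma called 0 of the 52 genes on high-fat diet, as it called 0.00% of all genes. An unadjusted p under 0.05 was reached by 6 (6.43% of all genes), which were Cyp2b10, Cyp2b13, Cyp2d13 and Cyp3a16 with positive differences (3.53% of all genes) and Cyp2c55 and Cyp2u1 with negative ones (2.90% of all genes). Each of the 23 other settings tried also called 0 P450 genes here. The WT diets did not overlap for 2 genes, Cyp2d10 and Cyp2j5, both higher on high-fat diet (3.51% of all genes). Positive differences were the majority: 42 of 52 were positive, against 44.0% of all genes, with a median of 0.07 against -0.01. Among the 29 bright genes 27 were positive and the median was 0.12, against 64.6% and 0.03 for the 3822 bright genes.

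Averaged over both genotypes, 2 of 52 rose on high-fat diet, Cyp3a16 and Cyp2b13 (1.86% of all genes called in either direction, 1.35% higher), and 13 had an unadjusted p under 0.05 (26.9% of all genes), all with positive differences. The difference was positive in both genotypes for 28 genes, negative in both for 7 and opposite for 17. The plot of diet differences shows all 6 genes of subfamily 3a on the right of 0 in both genotypes and the 2d genes close to 0. Whether fewer cells of a type or less RNA per cell lies behind a level cannot be told apart in whole liver. Macrophage markers moved with the diet in Het: 13 of 13 were higher on high-fat diet and 8 were called higher (1.50% of all genes). Without Het_control 2, where 0.873% of all genes were called in either direction, 4 markers were called higher. Their summed level on the log2 scale ran from 14.39 to 14.77 in Het_HFD, 13.71 to 14.27 in Het_control, 13.96 to 14.58 in WT_HFD and 14.25 to 14.38 in WT_control livers, and the least abundant marker averaged 7.85. Their part in the P450 differences was not tested.

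**Figure D2:**
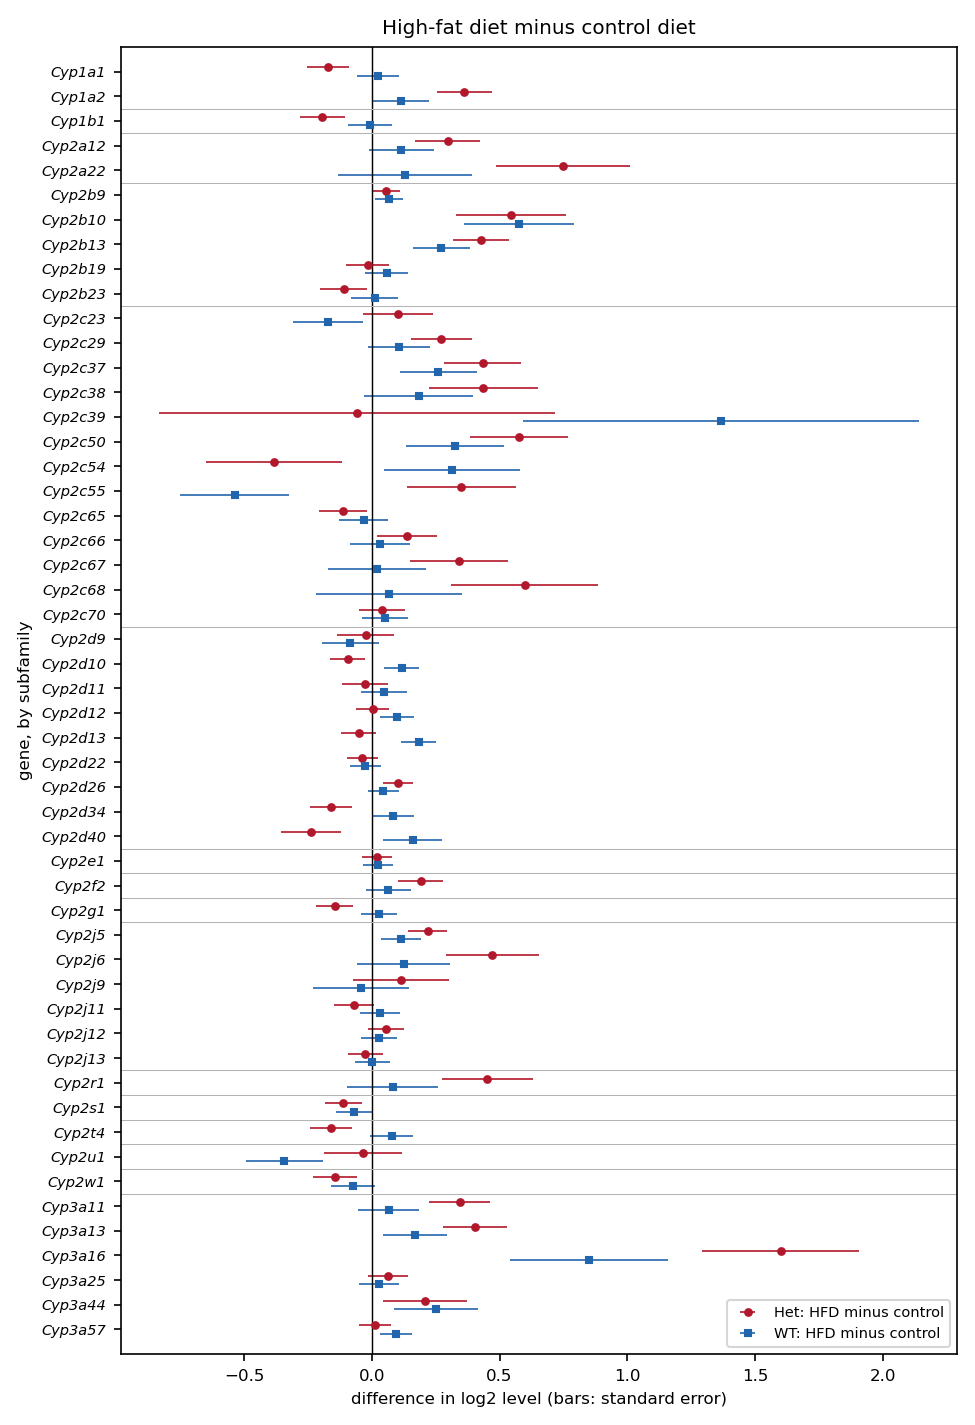
Difference in log2 level, high-fat diet minus control diet, for the 52 P450 genes (rows, by subfamily), with red circles for Het and blue squares for WT and bars of 1 SE from limma. Cyp3a16 had the largest difference in Het, 1.60, and Cyp2c39 the largest in WT, 1.37, with an SE of 0.77.

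Genotype was compared next on each diet. On high-fat diet 0 of 52 P450 genes were called (0.00502% of all genes, which is 1 gene). At an unadjusted p under 0.05 there were 4 (3.57% of all genes), all lower in Het (1.24% of all genes, with 2.33% higher): Cyp2c54, Cyp2d13, Cyp2g1 and Cyp3a44. Values in Het_HFD lay below those in WT_HFD without overlap for 5 genes (1.57% of all genes), namely Cyp2a12, Cyp2c54, Cyp2d13, Cyp2g1 and Cyp3a57, and 0 were higher without overlap (2.18% of all genes). In all, 41 of 52 differences were negative with a median of -0.08, against 46.2% and 0.01 for all genes. Among the 29 bright genes 25 were negative with a median of -0.10, against 53.8% and -0.01 for the 3822 bright genes. The alternative settings called 0 P450 genes in each of the genotype comparisons.

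On control diet 0 of 52 were called either (0.00% of all genes), 14 had an unadjusted p under 0.05 (15.7% of all genes), 12 of them lower in Het (6.73% of all genes), and Cyp2c55 and Cyp3a16 were lower in Het without overlap (2.10% of all genes). Higher in Het without overlap were 0 (4.03% of all genes). The median was -0.06, against 0.04 for all genes. For the bright genes, of which 25 of 29 were negative, it was -0.25, against -0.10 and 75.2% negative for all genes that bright. Het_control 2 weighs on this comparison: without it 4 genes had an unadjusted p under 0.05 (8.03% of all genes), 3 were lower without overlap (2.97% of all genes) and 12 of the 52 differences changed sign. The bright P450 median was then -0.11 with 22 of 29 negative, against -0.02 and 57.7%. Over both diets 0 genes were called (0.00502% of all genes), 11 had an unadjusted p under 0.05 (7.76% of all genes), and 10 of these were lower in Het (2.99% of all genes) and 1 higher (4.77% of all genes). In all, 42 of 52 differences were negative with a median of -0.07, against 38.6% and 0.03 for all genes. Among the 29 bright genes 28 were negative with a median of -0.12, against 73.4% and -0.05 for all genes that bright. Without Het_control 2 it was 26 of 29 and -0.09, against 58.2% and -0.01. The 13 Cyp2c genes and the 6 Cyp3a genes were all negative over both diets, and 12 of the 13 and all 6 without Het_control 2. These shares stand beside the same 73.4% of bright genes, or 58.2% without that array. The difference was negative on both diets for 29 genes, positive on both for 3 and opposite for 20.

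**Figure D3:**
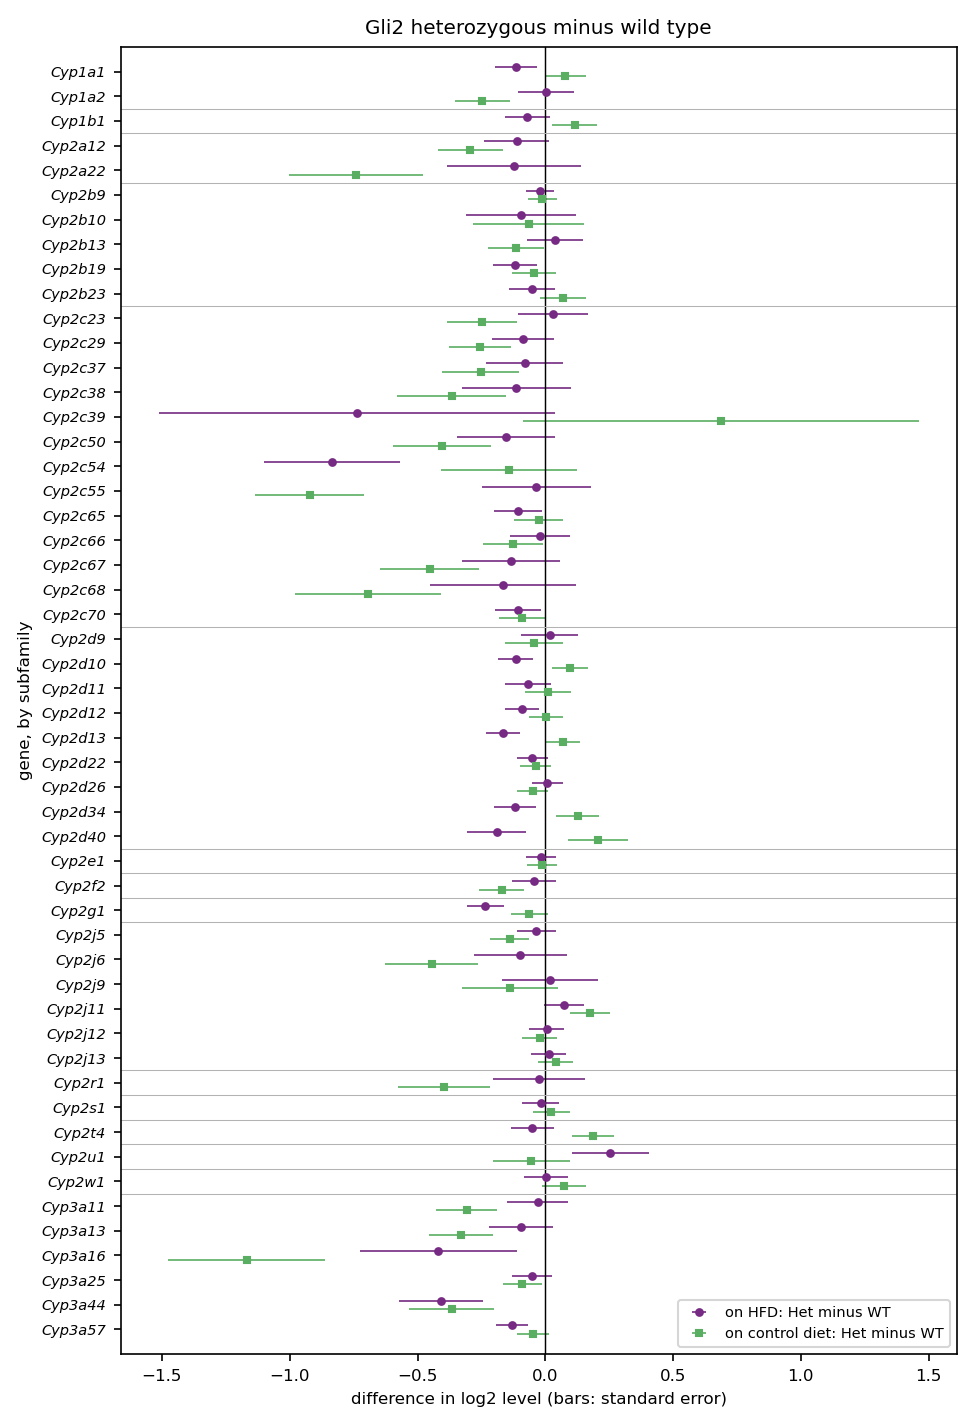
Difference in log2 level, Gli2 heterozygous minus wild type, for the 52 P450 genes (rows, by subfamily), with purple circles for high-fat diet and green squares for control diet and bars of 1 SE from limma. The lowest value on high-fat diet was that of Cyp2c54, -0.84, and on control diet that of Cyp3a16, -1.17, and 0 genes were called on either diet.

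The test of whether the diet acted differently in the genotypes, the interaction, called 0 of 52 genes (0.00% of all genes) and gave 4 with an unadjusted p under 0.05 (8.13% of all genes). These were Cyp2c55 with a positive interaction (4.16% of all genes) and Cyp2d10, Cyp2d13 and Cyp2d40 with negative ones (3.97% of all genes). A gene called in Het and not in WT is therefore not shown to differ between them. The median interaction was 0.01, against -0.03 over all genes, and 26 of the 52 were positive. For the bright genes it was 0.15, against 0.09, and without Het_control 2 it was 0.02, against 0.01.

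Subfamily 3a holds the enzymes that oxidise the widest range of drugs and steroids, with Cyp3a11 the main adult form and a PXR target. Cyp3a16 is best known from fetal and newborn mouse liver, and Cyp3a44 from adult females. Cyp3a16 had log2 levels of 11.71, 11.80, 11.79 and 10.77 in Het_HFD and 9.38, 9.87, 10.27 and 10.14 in Het_control livers. Wild-type livers held 11.17, 11.85, 12.31 and 12.40 in WT_HFD and 11.61, 11.43, 10.97 and 10.33 in WT_control. Every Het_HFD liver lay above every Het_control liver, the fourth Het_HFD liver stood about 1 unit below the other 3, and the WT diets overlapped. The difference by diet was 1.60 ± 0.31 in Het (95% interval 0.95 to 2.25, 3.03-fold, limma adjusted p 0.0222) and 0.85 ± 0.31 in WT (interval 0.20 to 1.50, adjusted p 0.61). Over both genotypes it was 1.22 ± 0.22, or 2.34-fold (adjusted p 0.0137), and the interaction was 0.75 ± 0.44 (adjusted p 0.632). The call in Het held without Het_control 2 (difference 1.58, adjusted p 0.0382) and was lost without Het_HFD 1, 2 or 3 (adjusted p 0.0536, 0.0771 and 0.0723) and with only the Het groups fitted (0.0821).

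By genotype, Cyp3a16 on control diet was lower in every Het liver than in every WT liver, with a difference of -1.17 ± 0.31 (interval -1.82 to -0.52, limma adjusted p 0.279). On high-fat diet the groups overlapped and the difference was -0.42 ± 0.31 (adjusted p 1). Of the 6 Cyp3a genes, 6 had positive diet differences in both genotypes (5 in Het without Het_control 2), and 3 did not overlap between the diets in Het (6.58% of all genes). Cyp3a11 had 12.77, 12.80, 12.74 and 12.95 in Het_HFD and 12.59, 12.00, 12.56 and 12.72 in Het_control livers, which differed by 0.34 ± 0.12 (limma adjusted p 0.0933), with Het_control 2 far below the rest; without it the difference was 0.19. Cyp3a13 differed by 0.40 ± 0.13 between the Het diets (adjusted p 0.0757; 0.31 without Het_control 2). Both missed the threshold in all 7 comparisons.

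Cyp3a44 had 11.67, 11.65, 11.38 and 11.12 in Het_HFD, 11.06, 10.94, 11.47 and 11.51 in Het_control, 11.55, 11.97, 11.94 and 11.99 in WT_HFD and 11.86, 11.86, 11.48 and 11.26 in WT_control livers. The 3 highest WT_HFD livers exceeded every Het liver, and the genotypes overlapped on both diets. Its Het minus WT difference was -0.41 ± 0.16 on high-fat diet, -0.37 ± 0.16 on control diet and -0.39 ± 0.12 over both (limma adjusted p 1, 0.309 and 0.573). A probe set shared by Cyp3a44, Cyp3a41a and Cyp3a41b gave -0.0076 ± 0.13, -0.30 ± 0.13 and -0.16 ± 0.09 in that order. The diet differences of Cyp3a44 were 0.21 ± 0.16 in Het (0.11 without Het_control 2) and 0.25 ± 0.16 in WT. Cyp3a25, an adult form, had a diet difference of 0.06 ± 0.08 in Het (interval -0.10 to 0.23, 0.02 without Het_control 2) and 0.03 ± 0.08 in WT (interval -0.14 to 0.19). Cyp3a57 spanned only 5.07 to 5.45 over the 16 arrays.

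The stretches upstream of these genes are shown because genes of the same cluster on chromosome 5 with close upstream sequence include one that was called by diet in Het and others that were not. Whether their diet differences differ from each other was not tested. The sequences are from RefSeq (GRCm38.p6), 5′ to 3′, from position -250 to position -18 from the annotated start, which leaves out every base inside a RefSeq gene record of the 3 genes. Capitals mark AGGTCA, the letters of a nuclear receptor hexamer, on either strand. Cyp3a16 lies at chr5:145469741-145469973, Cyp3a44 at chr5:145805892-145806124 and Cyp3a11 at chr5:145879872-145880104, all on the minus strand.
Cyp3a16: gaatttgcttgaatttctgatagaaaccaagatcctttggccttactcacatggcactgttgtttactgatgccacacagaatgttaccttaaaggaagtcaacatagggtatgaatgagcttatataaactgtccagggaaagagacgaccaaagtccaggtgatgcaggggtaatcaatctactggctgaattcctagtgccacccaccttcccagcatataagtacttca
Cyp3a44: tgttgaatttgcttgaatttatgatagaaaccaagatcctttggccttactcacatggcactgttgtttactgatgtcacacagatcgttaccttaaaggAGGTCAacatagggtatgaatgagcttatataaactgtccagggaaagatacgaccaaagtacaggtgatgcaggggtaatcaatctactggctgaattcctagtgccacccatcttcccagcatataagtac
Cyp3a11: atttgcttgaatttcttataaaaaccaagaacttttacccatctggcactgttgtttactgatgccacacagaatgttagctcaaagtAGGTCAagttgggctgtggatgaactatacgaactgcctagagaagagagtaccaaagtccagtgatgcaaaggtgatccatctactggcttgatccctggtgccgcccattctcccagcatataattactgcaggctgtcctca
Cyp3a16 matched Cyp3a44 at 221 of 229 aligned bases (96.5%) and Cyp3a11 at 184 of 222 (82.9%). The hexamer AGGTCA stood at position -150 in Cyp3a44 and at position -162 in Cyp3a11, and these letters were not in the Cyp3a16 window. The diet differences in Het were 1.60, 0.21 and 0.34 in the order of the sequences, and 1.58, 0.11 and 0.19 without Het_control 2. Whether the hexamer bears on these differences was not tested. These genes are close paralogs, and how far a probe set of one also reads the others is not known here.

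Over all genes with a promoter in the RefSeq table, 44 of the 52 P450 genes were found, and 4 motifs were searched on both strands in the 250 bases before the start. Unlike the stretches printed, these 250 bases were not cut, so for some genes they include bases inside a RefSeq gene record. AGGTCA was in 14 of the 44 (31.8%) and in 13.8% of 27025 genes. The 14 include several genes of subfamily 2b and several of 3a, which are paralogs and not independent of each other. TGAACT, the letters of the hexamer bound by PXR in some sites, was in 3 (6.82%, against 11.9%). TTCNNNGAA, the letters of a STAT5 site, was in 2 (4.55%, against 7.18%), and GCGTG, the core of the AhR element, in 8 (18.2%, against 28.2%). A match to so few letters is a description of the sequence and not a site.

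Subfamily 2b includes Cyp2b10, the classic target of CAR and of phenobarbital, and Cyp2b9 and Cyp2b13, which are predominant in female mouse liver. Cyp2b13 had log2 levels of 12.86, 12.88, 13.12 and 13.01 in Het_HFD, 12.56, 12.37, 12.46 and 12.77 in Het_control, 12.97, 12.90, 12.91 and 12.94 in WT_HFD and 12.57, 12.67, 13.00 and 12.39 in WT_control livers. The Het diets did not overlap, and in WT a single control liver, the third, reached the high-fat range. Over both genotypes Cyp2b13 rose by 0.35 ± 0.08 (interval 0.19 to 0.51, 1.27-fold, limma adjusted p 0.0313). In Het alone the difference was 0.43 ± 0.11 (adjusted p 0.0512) and in WT 0.27 ± 0.11 (adjusted p 0.663). The call over both genotypes held in 6 of the 16 fits that each left out 1 array, Het_control 2 among them (adjusted p 0.0293), and was lost in 10 with adjusted p up to 0.0768. In Het alone, leaving out WT_control 3 or Het_control 4 brought it under the threshold (limma adjusted p 0.0322 and 0.0128), where 1.42% and 17.3% of all genes were called. The other fits of the 16 did not call it in Het, with limma adjusted p up to 0.131. Without Het_control 2 the difference in Het was 0.37 (limma adjusted p 0.0984).

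Cyp2b10 had 9.24, 9.20, 9.29 and 9.00 in Het_HFD, 8.58, 8.08, 8.87 and 9.02 in Het_control, 9.63, 8.54, 9.29 and 9.65 in WT_HFD and 8.65, 8.80, 8.93 and 8.43 in WT_control livers. Values were higher on high-fat diet in most animals, with WT_HFD 2 down among the control livers and Het_control 4 up among the Het_HFD livers. The diet difference was 0.55 ± 0.22 in Het, 0.58 ± 0.22 in WT and 0.56 ± 0.15 over both (limma adjusted p 0.116, 0.624 and 0.0659), so it missed the threshold. The difference in Het was 0.36 without Het_control 2. Over both genotypes it passed without Het_control 4 (limma adjusted p 0.0241) or without WT_HFD 2 (0.0137), where 8.80% and 1.79% of all genes were called. It missed in the other fits that left out 1 array, with limma adjusted p up to 0.128 (0.0675 without Het_control 2). Cyp2b9 kept between 13.47 and 13.68 on the 16 arrays and differed by 0.06 ± 0.06 in Het and 0.07 ± 0.06 in WT by diet (intervals -0.06 to 0.17 and -0.05 to 0.18), and by 0.03 in Het without Het_control 2. Cyp2b19 and Cyp2b23 spanned 7.14 to 7.61 and 8.25 to 8.83, and Het_control 2 was the highest array of both.

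Upstream sequence of the 2b cluster on chromosome 7 is shown for the same reason. The pair Cyp2b13 and Cyp2b9 is nearly identical there, and Cyp2b13 was called over both genotypes while Cyp2b9 was not. That contrast was not itself tested. Cyp2b9 averaged 13.59 over the 16 arrays and Cyp2b13 12.77. The brightest hepatocyte marker averaged 13.96, so Cyp2b9 lay near the highest levels read here. Whether the array could show a rise at that level was not tested. The windows run from position -250 to position -108 on the plus strand, again outside the RefSeq gene records, at chr7:26061245-26061387 for Cyp2b13, chr7:26173159-26173301 for Cyp2b9 and chr7:25897408-25897550 for Cyp2b10 (GRCm38.p6), with AGGTCA in capitals.
Cyp2b13: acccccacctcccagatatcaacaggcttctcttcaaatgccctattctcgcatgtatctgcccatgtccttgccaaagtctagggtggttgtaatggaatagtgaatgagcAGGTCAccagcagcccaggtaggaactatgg
Cyp2b9: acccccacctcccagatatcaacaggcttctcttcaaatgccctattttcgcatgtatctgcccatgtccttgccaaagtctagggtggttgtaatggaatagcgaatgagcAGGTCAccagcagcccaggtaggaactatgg
Cyp2b10: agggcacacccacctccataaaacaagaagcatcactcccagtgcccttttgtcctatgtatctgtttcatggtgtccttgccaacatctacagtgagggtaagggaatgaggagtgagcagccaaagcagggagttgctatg
Cyp2b13 and Cyp2b9 shared 141 of 143 bases (98.6%), and both held AGGTCA at position -138. Cyp2b10 shared 100 of 134 aligned bases with each (74.6%), and the letters were not in its window. The diet differences in Het were 0.43, 0.06 and 0.55 in the order of the sequences, and any link to the hexamer was not tested.

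**Figure D4:**
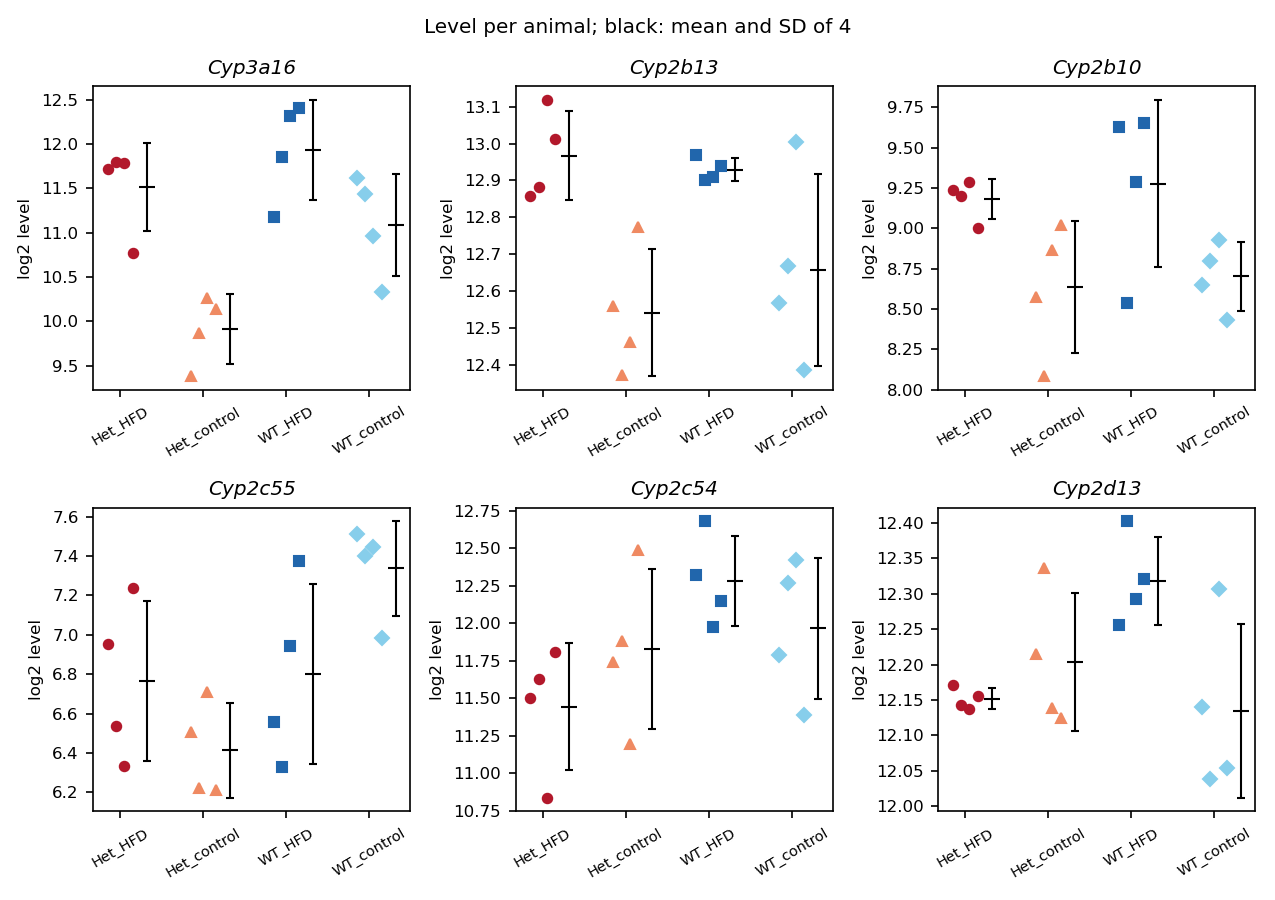
Log2 level of 6 P450 genes in each animal by group (Het_HFD, Het_control, WT_HFD, WT_control from left to right), each panel with its own axis that does not start at 0. Black bars are the mean and SD of 4 animals. Cyp3a16 in Het_control lay between 9.38 and 10.27, below every other animal.

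Subfamily 2c, with 13 genes the largest, includes enzymes that epoxidise arachidonic and linoleic acid, and Cyp2c70, which makes the muricholic bile acids of mice. The diet difference was positive in 10 of 13 genes in Het (median 0.27) and in 10 of 13 in WT (median 0.07), and 0 were called in either. Positive differences made up 40.5% of all genes and 76.5% of bright genes in Het, and 44.0% and 64.6% in WT. Without Het_control 2, 9 of the 13 were positive in Het with a median of 0.12, beside 42.8% of all genes and 64.3% of bright genes. Cyp2c37, a fatty acid oxygenase, had 13.21, 13.08, 13.09 and 13.23 in Het_HFD and 13.02, 12.30, 12.55 and 13.01 in Het_control livers. These did not overlap, with a difference of 0.43 ± 0.15 (limma adjusted p 0.0943; 0.29 without Het_control 2). Its neighbour Cyp2c50 had 12.29, 12.27, 12.14 and 12.46 in Het_HFD and 11.99, 11.03, 11.61 and 12.24 in Het_control livers, where Het_control 4 fell inside the high-fat range. The difference was 0.57 ± 0.19 in Het and 0.33 ± 0.19 in WT (adjusted p 0.087 and 0.857). Without Het_control 2 it was 0.34 in Het (limma adjusted p 0.213).

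Cyp2c55, an enzyme known to be induced through CAR and PXR, had 6.95, 6.54, 6.33 and 7.24 in Het_HFD, 6.51, 6.22, 6.71 and 6.21 in Het_control, 6.56, 6.33, 6.94 and 7.37 in WT_HFD and 7.51, 7.40, 7.45 and 6.98 in WT_control livers. The WT_control livers were above every Het_control liver, and the remaining groups overlapped. The genotype difference on control diet was -0.92 ± 0.21 (interval -1.37 to -0.47, 0.53-fold, limma adjusted p 0.279), and on high-fat diet it was -0.04 ± 0.21. By diet the signs were opposite, 0.35 ± 0.21 in Het and -0.54 ± 0.21 in WT. The interaction was 0.89 ± 0.30 with an unadjusted p of 0.00931 and an adjusted p of 0.472 in limma.

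Cyp2c54, an epoxygenase, had 11.50, 11.63, 10.84 and 11.81 in Het_HFD against 12.32, 12.68, 11.98 and 12.15 in WT_HFD livers. No Het_HFD liver reached the lowest WT_HFD liver, and the difference was -0.84 ± 0.27 (interval -1.40 to -0.27, 0.56-fold, limma adjusted p 0.931). The control-diet livers held 11.74, 11.88, 11.19 and 12.49 in Het_control and 11.79, 12.27, 12.42 and 11.39 in WT_control and overlapped widely, with a difference of -0.14 ± 0.27. Cyp2c67 and Cyp2c68 had Het minus WT differences of -0.45 ± 0.19 and -0.69 ± 0.29 on control diet, with levels of 10.99 and 10.46 on Het_control 2. Without that array the differences were -0.20 and -0.27.

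Cyp2c23, the mouse arachidonic acid epoxygenase of liver and kidney, spanned 12.72 to 13.41 and differed by 0.10 ± 0.14 in Het and -0.17 ± 0.14 in WT by diet. Cyp2c70 stayed within 12.68 to 13.20 with diet differences of 0.04 ± 0.09 in Het (-0.05 without Het_control 2) and 0.05 ± 0.09 in WT. Cyp2c29, a CAR-responsive form, differed by 0.27 ± 0.12 between the Het diets and by 0.12 without Het_control 2. Cyp2c38 did so by 0.44 ± 0.21, and by 0.14 without that array. Cyp2c65 and Cyp2c66 spanned 4.60 to 5.09 and 7.37 to 7.98.

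Cyp2c39, an enzyme that hydroxylates retinoic acid, was singled out after its values were seen. Its levels were 10.40, 10.26, 12.74 and 10.59 in Het_HFD, 10.09, 8.88, 12.55 and 12.72 in Het_control, 12.73, 12.94, 10.49 and 10.80 in WT_HFD and 10.48, 10.32, 10.87 and 9.81 in WT_control livers. Of the 16 arrays, 5 lay between 12.55 and 12.94 and the other 11 between 8.88 and 10.87, with a gap of 1.68 between them. The high level appeared in 1 Het_HFD, 2 Het_control, 2 WT_HFD and 0 WT_control animals, so it followed neither diet nor genotype. The WT diet difference of 1.37 ± 0.77 was the highest of all 19938 genes, but the groups overlapped and its limma adjusted p was 0.849. The SD within groups was 1.30, against a median of 0.15 over the P450 genes.

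**Figure D5:**
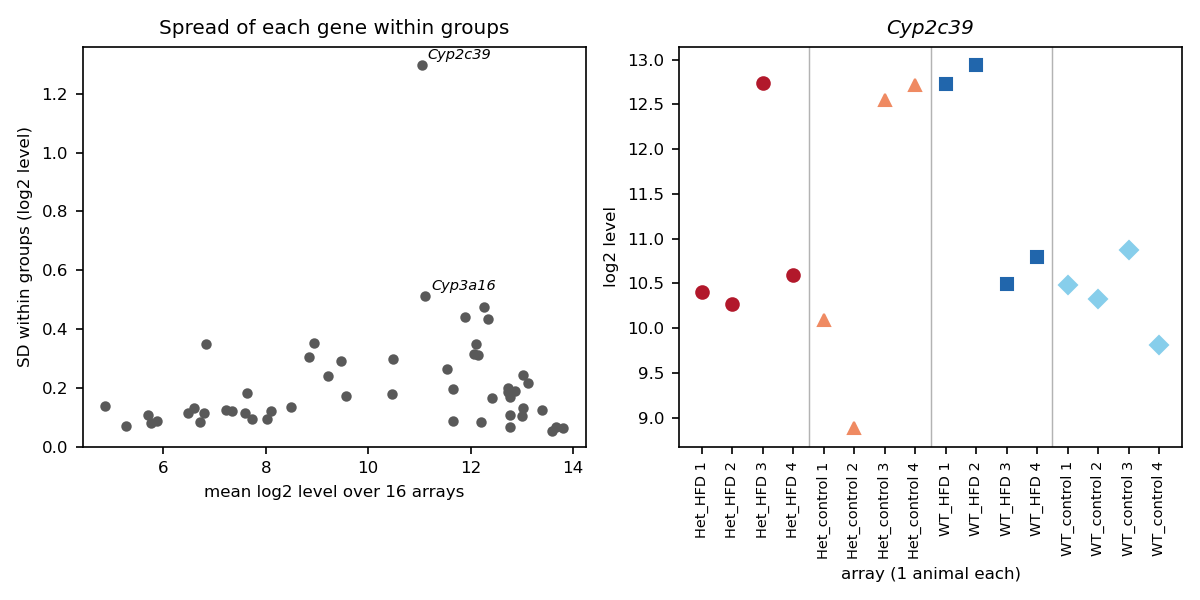
Left, SD within groups (log2 level) against mean log2 level over 16 arrays for the 52 P450 genes, with the 2 genes over an SD of 0.5 named. Right, log2 level of Cyp2c39 on each array by group (axis does not start at 0): 5 arrays lie between 12.55 and 12.94 and 11 between 8.88 and 10.87.

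Family 1 answers to AhR. Cyp1a2, the hepatic member that oxidises caffeine and aromatic amines, had 12.46, 12.68, 12.57 and 12.44 in Het_HFD and 12.19, 11.85, 12.21 and 12.45 in Het_control livers. Only Het_control 4 reached the high-fat range, just above the lowest Het_HFD liver. The difference was 0.36 ± 0.11 (interval 0.13 to 0.59, 1.29-fold, limma adjusted p 0.0706), against 0.11 ± 0.11 in WT. Without Het_control 2 it was 0.26 in Het (limma adjusted p 0.154). Without Het_control 4 it passed the threshold (adjusted p 0.0157), in a fit that called 17.3% of all genes. Cyp1a1, the most strongly AhR-inducible form, stayed between 6.58 and 7.10 with diet differences of -0.17 ± 0.08 in Het (-0.10 without Het_control 2) and 0.02 ± 0.08 in WT. Cyp1b1, mainly an enzyme of tissues other than liver, differed by -0.19 ± 0.09 in Het, with Het_control 2 the highest array at 7.63, and by -0.09 without it.

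In subfamily 2a, Cyp2a12 is a steroid and bile acid hydroxylase of mouse liver. It had 12.75, 12.80, 12.78 and 12.79 in Het_HFD, 12.64, 11.95, 12.62 and 12.73 in Het_control, 12.84, 12.87, 12.89 and 12.96 in WT_HFD and 12.74, 12.74, 13.00 and 12.63 in WT_control livers. The Het_HFD livers lay above the Het_control livers and below the WT_HFD livers, without overlap in either case. The diet difference in Het was 0.30 ± 0.13 and 0.12 without Het_control 2, and the genotype difference on high-fat diet was -0.11 ± 0.13 (limma adjusted p 0.132, 0.363 and 1). Cyp2a22 had 12.42, 10.70, 12.01 and 11.90 in Het_control and 12.67, 12.46, 12.86 and 12.00 in WT_control livers, which differed by -0.74 ± 0.26 (adjusted p 0.287) and by -0.39 without Het_control 2. Its diet difference in Het was 0.75 ± 0.26, and 0.40 without that array.

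Subfamily 2d, whose members oxidise many amine drugs, had small differences: the 9 by diet ran from -0.24 to 0.10 in Het and from -0.08 to 0.18 in WT. Cyp2d26 kept between 13.44 and 13.74, Cyp2d22 between 12.69 and 12.93 and Cyp2d9, a male-biased testosterone hydroxylase, between 9.30 and 9.84. Cyp2d13 had 12.17, 12.14, 12.14 and 12.16 in Het_HFD and 12.26, 12.40, 12.29 and 12.32 in WT_HFD livers, which did not overlap and differed by -0.17 ± 0.07 (limma adjusted p 1). In WT it was 12.26, 12.40, 12.29 and 12.32 on high-fat diet and 12.14, 12.04, 12.31 and 12.05 on control diet, a difference of 0.18 ± 0.07 (adjusted p 0.622), while the Het diets differed by -0.05 ± 0.07 (-0.01 without Het_control 2). Signs were also opposite for Cyp2d10, -0.09 ± 0.07 in Het and 0.12 ± 0.07 in WT, and for Cyp2d40, -0.24 ± 0.12 and 0.16 ± 0.12. The 3 interactions were -0.23 ± 0.10, -0.21 ± 0.10 and -0.40 ± 0.16 (adjusted p 0.559, 0.607 and 0.565). Cyp2d34 was lower in each Het_HFD than in each Het_control liver by a difference of -0.16 ± 0.08 (adjusted p 0.184; -0.08 without Het_control 2). Cyp2d11 and Cyp2d12 spanned 6.38 to 6.80 and 5.65 to 5.94.

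Cyp2e1, which oxidises ethanol and acetone, kept between 13.67 and 13.93 on the 16 arrays. Its diet difference was 0.02 ± 0.06 in Het and 0.02 ± 0.06 in WT (intervals -0.10 to 0.14 and -0.10 to 0.15), and its genotype difference over both diets was -0.02 ± 0.04 (interval -0.10 to 0.07). Without Het_control 2 its diet difference in Het was -0.01. Its mean was 13.80, and whether the array could show a rise at that level was not tested. Cyp2f2, the naphthalene-oxidising enzyme of lung that liver also makes, differed by 0.19 ± 0.09 between the Het diets and by 0.11 without Het_control 2.

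In subfamily 2j, epoxygenases of arachidonic acid, Cyp2j5 had 13.11, 13.05, 13.01 and 13.11 in Het_HFD, 12.88, 12.62, 12.80 and 13.10 in Het_control, 13.08, 13.09, 13.12 and 13.12 in WT_HFD and 13.02, 12.98, 13.02 and 12.94 in WT_control livers. Each WT_HFD liver lay above each WT_control liver, and in Het only Het_control 4 reached the high-fat range. The diet difference was 0.22 ± 0.08 in Het and 0.11 ± 0.08 in WT (limma adjusted p 0.0978 and 0.891), and 0.14 in Het without Het_control 2. Cyp2j6 differed by 0.47 ± 0.18 in Het and by 0.21 without Het_control 2, whose level was 9.34. Cyp2j9 spanned 8.45 to 9.31, and Cyp2j11, Cyp2j12 and Cyp2j13 each spanned at most 0.54.

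Of the subfamilies with a single gene, Cyp2r1, a vitamin D hydroxylase, had 9.42, 9.58, 9.42 and 9.93 in Het_HFD and 9.11, 8.46, 9.44 and 9.53 in Het_control livers, a difference of 0.45 ± 0.18 (limma adjusted p 0.117) that was 0.23 without Het_control 2. Cyp2g1, known from the olfactory mucosa, had 7.68, 7.57, 7.55 and 7.53 in Het_HFD and 7.84, 8.01, 7.71 and 7.71 in WT_HFD livers. The Het_HFD livers were all below the WT_HFD livers, with a difference of -0.23 ± 0.07 and an adjusted p of 0.884. Cyp2u1, a fatty acid hydroxylase, differed by -0.34 ± 0.15 between the WT diets (adjusted p 0.744) and by -0.03 ± 0.15 between the Het diets. Cyp2s1, Cyp2t4 and Cyp2w1 had diet differences in Het of -0.11 ± 0.07, -0.16 ± 0.08 and -0.14 ± 0.09 and in WT of -0.07 ± 0.07, 0.08 ± 0.08 and -0.07 ± 0.09. Without Het_control 2 those in Het were -0.08, -0.10 and -0.05.

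A further 7 probe sets name a gene of these families without meeting the rule, 5 of them because they carry several symbols. The probe set shared by Cyp3a41b, Cyp3a44 and Cyp3a41a averaged 13.25 ± 0.03 in Het_HFD, 12.79 ± 0.32 in Het_control, 13.26 ± 0.22 in WT_HFD and 13.10 ± 0.09 in WT_control livers (SD, n = 4). Its Het diets did not overlap and differed by 0.46 ± 0.13 (limma adjusted p 0.0795 in the fit over all probe sets). The probe set that adds Cyp3a11 to those 3 gave 0.45 ± 0.13 (adjusted p 0.0808). Cyp2d37-ps, marked as a pseudogene, averaged 12.18 ± 0.06 in Het_HFD and 12.57 ± 0.19 in Het_control livers, lower on high-fat diet without overlap by a difference of -0.39 ± 0.08 (adjusted p 0.0598). The probe set of Cyp2a5 and Cyp2a4, the coumarin and steroid hydroxylases, differed by 0.04 ± 0.07 in Het and 0.01 ± 0.07 in WT by diet.

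The genes that work with or around the P450s were read from lists, to be set beside 1.50% of all genes called higher by diet in Het and 1.35% over both genotypes. Without Het_control 2, limma called 0.873% of all genes by diet in Het and 3.57% over both genotypes, in either direction. Of 16 receptors and dimer partners, 1 rose on high-fat diet in Het, Rxrg, a retinoid X receptor, which averaged 9.34 in Het_HFD and 8.95 in Het_control livers (difference 0.39 ± 0.10, limma adjusted p 0.0499). The call was lost without Het_control 2 (0.0764). Of the 17 electron donors and haem enzymes, 0 were called, with a median of 0.08 in Het (0.02 without Het_control 2). Among the 4 AhR targets outside the P450s, 1 difference in Het was positive and 3 were negative, with a median of -0.08 (-0.02 without Het_control 2). The positive one was Nqo1, a quinone reductase, which rose by 0.64 ± 0.14 (limma adjusted p 0.0377). Of the 13 targets of CAR and PXR, 9 differences in Het were positive and 4 negative, with a median of 0.11 (0.03 without Het_control 2). Called higher in Het were 2, Aldh1a1, a retinal dehydrogenase, by 0.67 ± 0.15 and Abcc3, an efflux pump, by 0.47 ± 0.11 (limma adjusted p 0.0404 and 0.0453). Over both genotypes these rose together with Ephx1, the epoxide hydrolase, by 0.48 ± 0.11 (limma adjusted p 0.0302), so 3 of 13 were called. The median of the 13 over both genotypes was 0.04, and -0.0008 without Het_control 2. Without Het_control 2 the calls in Het of Nqo1, Aldh1a1 and Abcc3 were lost (adjusted p 0.0684, 0.0719 and 0.0672), and those over both genotypes held. In wild-type livers alone, 0 genes of any of these lists were called, as limma called 0.00% of all genes there.

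Conjugating enzymes act on P450 products. Of these, 30 of 32 had a positive difference in Het with a median of 0.29, against 40.5% and -0.05 for all genes and 76.5% and 0.13 for bright genes. Called higher were 2 (1.50% of all genes), the glutathione transferases Gstt3 by 0.64 ± 0.14 and Gstk1 by 0.55 ± 0.14 (limma adjusted p 0.0377 and 0.0484). In WT 26 of 32 were positive with a median of 0.11. Without Het_control 2 the Het median was 0.17 and 0 were called (0.873% of all genes in either direction). Over both genotypes 4 of 32 rose (1.35% of all genes), and 4 were called without that array (3.57% of all genes in either direction). Of 30 P450s of other families 0 were called in Het and 1, Cyp46a1, a cholesterol hydroxylase, fell over both genotypes by 0.20 on the log2 scale (adjusted p 0.0379).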

How the data were processed

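Liver RNA of 16 mice was measured on Affymetrix MoGene 1.0 ST arrays, 1 array per animal and 4 per group. The deposited values are log2 levels, for which the submitters' processing notes name RMA and Affymetrix Expression Console. RMA corrects background, normalizes quantiles and summarises the probes of each probe set. Array columns without a sample numbered 0. Probe intensities were not used, and the number of arrays limits the precision.

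Of 35556 probe sets, the platform annotation gave 21789 a single gene symbol, 1621 several and 12146 none. The highest-mean probe set was kept for each of 19938 genes (998 had more than 1), and 19856 of these matched a RefSeq entry. limma 3.58.1 in R 4.3.3 (with statmod 1.5.0) was fitted to all 16 arrays with 1 mean per group, lmFit and eBayes, and p-values were adjusted by Benjamini-Hochberg over all 19938 genes. The fit was tested on simulated data. The p-values measure the spread between animals, taken as independent. Each group holds a pair of arrays with the same number in the sample title. Whether such animals are independent of each other is not known. Intervals are at 95%.

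The members and gene lists were chosen with earlier results of these data known. The genes described in full are those called in any of 7 comparisons, in each subfamily the gene with the highest mean and that with the smallest p for diet in Het, and the 3 smallest p-values of each comparison, 26 of 52 in all. Other members are given by their range or as values set beside these. Alternatives were leaving out each array, repeated quantile normalization, all single-symbol probe sets, leaving out dim probe sets, trended and robust moderation, array weights, fitting only the compared groups, and the number in the sample titles as a random block.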

Additional observations from a re-analysis of the deposited data

Results flagged for a closer look

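In 7 of the 104 groups of 4 arrays examined, 1 array lay far from the other 3 by Dixon's criterion, and chance gives about 1 in 20. Het_control 2 accounts for 3 of the 7: Cyp1b1 at 7.63 with the next array at 7.25, Cyp2a12 at 11.95 with the next at 12.62, and Cyp2f2 at 13.00 with the next at 13.30. Cyp3a16 was lowest in Het_HFD 4, at 10.77, where the next Het_HFD liver had 11.71. Cyp3a44 was lowest in WT_HFD 1, at 11.55, with the next at 11.94. Cyp2u1 was highest in Het_control 4, at 9.62, with the next at 9.19, and Cyp2d26 was highest in WT_control 3, at 13.74, with the next at 13.62.

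Outside the member genes, the probe sets shared by Cyp3a41b, Cyp3a44 and Cyp3a41a and by these with Cyp3a11 were higher on high-fat diet in Het without overlap, by 0.46 and 0.45 on the log2 scale (limma adjusted p 0.0795 and 0.0808).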

How the results depend on the processing

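Leaving out 1 array at a time gave 0 to 11 P450 genes called for diet in Het, 1 to 8 for diet over both genotypes, and 0 to 0 for each of the other 5 comparisons. The count in Het was 11 without Het_control 4, where 17.3% of all genes were called, 2 without WT_control 3 (1.42%) and 0 without Het_HFD 1, 2 or 3 (0.637%, 0.251% and 0.226%). Over both genotypes it was 8 without Het_control 4 (8.80%) and 4 without WT_control 3 (2.12%), and Cyp3a16 was called in all 16 of these fits. For diet in Het, trended and robust moderation (2.48% of all genes) and array weights (5.35%) each called 2 P450 genes, Cyp2b13 and Cyp3a16. Leaving out dim probe sets also called these 2, and the share of all genes called there is not given. The title number as a random block called 19 (16 higher, 34.8% of all genes), and fitting the 2 groups alone called 0 (0.0351%). For diet over both genotypes, array weights called 8 (10.6% of all genes) and the title-number block 13 (18.6%). The consensus correlation of that block was -0.372, and Het_control 2 shares its title number with Het_control 3. No paired analysis was possible because no 2 groups share more than 1 of the 11 numbers in the sample titles (1 stands in both WT groups), and what they stand for is not stated. Without Het_control 2 the diet difference in Het turned sign for 7 of the 52 P450 genes, Cyp2b19, Cyp2c70, Cyp2d11, Cyp2e1, Cyp2j11, Cyp2j13 and Cyp3a57. Among the genes recomputed under every setting it turned sign for Cyp2e1 (-0.014 without Het_control 2, and up to 0.044 without other arrays, -0.00104 after repeated quantile normalization, -0.0076 with array weights) and for Cyp2u1 (0.079 without Het_control 4, 0.0068 without Het_HFD 1, 0.0011 with the title-number block, and down to -0.083 without other arrays). The cause was not tested. Leaving out dim probe sets kept the 37 P450 genes with a mean above the median of all probe sets. The P450 median was then 0.19 for diet in Het, 0.17 for diet over both genotypes, -0.14 for genotype on control diet and 0.13 for the interaction. Of 766 recomputed values of named genes, 725 kept their direction and side of the threshold, 14 lost a call, 21 gained one and 6 turned sign.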

Other observations

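Liver genes outside the P450 families 1 to 3 that differ between the sexes held some of the largest diet differences in Het. Of 18 male-biased genes, 4 fell on high-fat diet in Het (0.712% of all genes). Without Het_control 2, where 0.873% of all genes were called in either direction, 3 were called lower. In all, 10 of the 18 were lower and 8 higher, with a median of -0.10 against -0.05 for all genes. The lists were chosen with earlier results of these data known, so the shares describe them and are not a test. Slco1a1, an uptake carrier for organic anions, averaged 6.80 in Het_HFD and 9.72 in Het_control livers (limma adjusted p 0.0139), and Egfr, the epidermal growth factor receptor, averaged 11.44 in Het_HFD and 12.41 in Het_control livers (adjusted p 0.00811). Of 21 female-biased genes, 3 rose (1.50% of all genes) and 1 fell (0.712%) in Het. The counts were 3 and 1 without Het_control 2, where 0.873% of all genes were called in either direction. In all, 16 of the 21 were higher and 5 lower, with a median of 0.15 (0.09 without that array). Sult2a3, a sulphotransferase, averaged 11.09 in Het_HFD and 7.85 in Het_control livers (adjusted p 0.00541), and Cd36, a fatty acid carrier, averaged 11.56 in Het_HFD and 10.12 in Het_control livers (adjusted p 0.0185). In wild-type livers 0 genes of either list were called, and the interaction called 0, where limma called 0.00% of all genes in each.

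The counts that follow stand beside 2.22% of all genes called by diet in Het (1.50% higher) and 1.35% called higher over both genotypes. Without Het_control 2, 0.873% of all genes were called by diet in Het. Of 15 genes of growth hormone signalling and 15 periportal genes, 0 were called by diet in Het. Their medians were 0.02 and 0.10 (-0.05 and 0.05 without Het_control 2), against -0.05 for all genes on all 16 arrays. Of 20 pericentral genes, which share the zone of many P450s, Aldh3a2, a fatty aldehyde dehydrogenase, rose in Het by 0.39 ± 0.10 (limma adjusted p 0.0484, and 0.0719 without Het_control 2), and over both genotypes the ammonium carrier Rhbg also rose, by 0.54 ± 0.12 (adjusted p 0.0385). Among markers of other liver cells, 0 of 11 endothelial, 0 of 7 bile duct and 0 of 9 lymphocyte genes were called by diet in Het, and 1 of 11 stellate cell genes rose (0 without Het_control 2). Positive differences in Het were seen in 8 of the 11 endothelial, 0 of the 7 bile duct, 5 of the 9 lymphocyte and 6 of the 11 stellate genes, against 40.5% of all genes. Of markers of other tissues, 0 of 11 for intestine and gallbladder, 0 of 9 for pancreas, 0 of 2 for erythroid cells, 0 of 7 for kidney and 0 of 7 for airway and nasal cells were called by diet in Het. Positive differences there numbered 1, 0, 1, 0 and 0 in that order.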
